A study of Mus musculus with 20 samples.

Results

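Transcripts of 10 cytokine receptor chains were followed in splenic follicular T cells of bone marrow chimeras. The 10 genes were chosen by name, with earlier results of these data known, from the 13798 genes of the expression matrix, and all 10 were found in it. They encode the ligand-binding chain of the interferon gamma receptor (Ifngr1), both chains of the type I interferon receptor (Ifnar1 and Ifnar2), both chains of the interleukin 6 receptor (Il6ra and Il6st), the shared gamma chain (Il2rg) with 3 chains that pair with it (Il2rb, Il21r and Il4ra), and the ligand-binding chain of the interleukin 10 receptor (Il10ra). Their levels were compared across 6 cell clusters, between wild type (WT) and autoimmune chimeras, and between cells of small and large T cell clones.

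Cytokine receptors of this class have no kinase of their own. Ligand binding brings receptor chains together, and Janus kinases bound to their tails phosphorylate STAT proteins, which enter the nucleus and act on transcription. In follicular helper T (TFH) cells, interleukin 6 and interleukin 21 act early through STAT3, interleukin 2 acts through STAT5 against the follicular program, and interferon gamma from T cells drives germinal center responses in several models of lupus. Follicular regulatory T (TFR) cells carry Foxp3 and restrain the germinal center.

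All 10 mice were C57BL/6 recipients, 8 to 10 weeks old when irradiated, that received congenic marrow from donors of 6 to 8 weeks, and they were killed 10 weeks after irradiation. The 5 WT chimeras (mice 11, 12, 14, 23 and 36) received WT marrow and were immunized at week 6 with NP-OVA in alum. The methods also describe a later booster of NP-OVA, and whether it was given before the labelled week of killing could not be settled here. The 5 mixed 564Igi chimeras (mice 13, 17, 21, 24 and 34) received WT marrow mixed with marrow from 564Igi mice, whose B cells carry knocked-in heavy and light chains of a receptor against ribonuclear complexes, and were not immunized. Immunization and 564Igi marrow therefore cannot be told apart in a comparison of the conditions. Marrow chimeras keep radioresistant cells of the host, and the sort took CD45.2+CD45.1- cells that were CD3+CD4+CXCR5+PD-1+. Each mouse gave 1 library of RNA and 1 of T cell receptors (TCR), so the 5 mice of a condition are separate animals. Labelled sex was 2 female and 3 male among WT chimeras and 3 female and 2 male among 564Igi chimeras.

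The tables held 28192 cells with RNA, 1121 to 4030 per mouse, with 3424280 to 15241983 raw molecules (UMIs) per mouse, and 21405 of them (75.9%) had a paired TCR. Cd3e was found in 99.4% of cells, Cd4 in 67.6%, Pdcd1 in 75.6%, Icos in 65.3% and Cxcr5 in 41.2%, so CXCR5, which the sort required as protein, was not found as RNA in most cells. Of 12 marker genes of the clusters, 11 were highest in the cluster they mark, and Tnfsf8 was not highest in activated TFH cells. Among genes that mark B, myeloid, CD8, natural killer or erythroid cells, Cst3 was found in 45.9% of cells and each of the others in 4.60% or fewer. Of 27695 distinct cell barcodes, 491 (1.77%) occurred in more than 1 library. Libraries of mice 34 and 36 were numbered apart from the others in the labels, and the comparisons of all cells and of clone size were also made without them.

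The positions below are on mouse genome build GRCm38. Ifnar2 (chromosome 16, 91372783 to 91405589, plus strand) and Ifnar1 (chromosome 16, 91485238 to 91507441, plus strand) lie in 1 group of receptor genes, with Il10rb 575 bases after Ifnar2 and 59404 bases before Ifnar1, and Ifngr2 39631 bases after Ifnar1. Il4ra (chromosome 7, 125552120 to 125579474, plus strand) lies 23955 bases before Il21r (chromosome 7, 125603429 to 125633570, plus strand). The other 6 genes each lie on a chromosome that holds no other gene of the 10, and their neighbours were not looked up. These are Ifngr1 on chromosome 10 (19591949 to 19610229, plus strand), Il6ra on chromosome 3 (89864059 to 89913196, minus strand), Il6st on chromosome 13 (112464070 to 112510086, plus strand), Il2rb on chromosome 15 (78479256 to 78495271, minus strand), Il2rg on chromosome X (101264378 to 101268255, minus strand) and Il10ra on chromosome 9 (45253837 to 45269149, minus strand). All 10 are annotated as protein coding.

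Because, over all cells, Ifngr1, Ifnar1 and Ifnar2 were lower in expanded clones while Il6ra was higher, though within TFR cells Il6ra was the lower one, as described further on, the 250 bases before the start of each of these 4 genes are shown, from RefSeq with build GRCm38.p6, 5′ to 3′ on the strand of the gene. RefSeq entries were matched for 8 of the 10 genes, and Il2rb and Il10ra had none. Capitals mark matches, on either strand, to TTCNNNGAA (the form STAT factors bind), a pair of GAAA with 2 bases between (interferon response), CCGGAA (ETS factors) or GGGCGG (GC box).
Ifngr1, chr10:19591699-19591948, plus strand: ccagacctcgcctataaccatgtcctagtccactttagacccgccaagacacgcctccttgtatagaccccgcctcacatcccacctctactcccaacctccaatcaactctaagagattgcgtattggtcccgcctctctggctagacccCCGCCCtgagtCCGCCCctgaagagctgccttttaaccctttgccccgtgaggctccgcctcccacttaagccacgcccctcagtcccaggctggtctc
Ifnar1, chr16:91484965-91485214, plus strand: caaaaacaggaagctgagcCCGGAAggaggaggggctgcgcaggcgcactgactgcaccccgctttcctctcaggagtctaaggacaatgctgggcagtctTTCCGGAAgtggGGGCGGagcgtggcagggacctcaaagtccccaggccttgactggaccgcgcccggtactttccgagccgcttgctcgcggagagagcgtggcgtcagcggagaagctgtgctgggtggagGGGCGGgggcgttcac
Ifnar2, chr16:91372533-91372782, plus strand: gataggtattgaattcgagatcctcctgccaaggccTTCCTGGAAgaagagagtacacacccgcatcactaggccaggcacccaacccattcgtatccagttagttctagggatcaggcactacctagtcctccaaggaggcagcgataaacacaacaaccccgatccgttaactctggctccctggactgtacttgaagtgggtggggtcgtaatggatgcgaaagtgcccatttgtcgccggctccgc
Il6ra, chr3:89913197-89913446, minus strand: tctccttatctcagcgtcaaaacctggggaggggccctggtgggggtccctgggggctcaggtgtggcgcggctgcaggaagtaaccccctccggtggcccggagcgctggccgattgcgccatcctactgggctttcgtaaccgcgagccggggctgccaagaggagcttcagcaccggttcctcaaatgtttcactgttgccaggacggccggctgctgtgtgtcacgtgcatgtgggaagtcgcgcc
The Ifngr1 window held 2 GC box matches on the opposite strand. The Ifnar1 window held 3 CCGGAA matches, 2 of which overlap on opposite strands, and 2 GC box matches. The Ifnar2 window held 1 TTCNNNGAA match, and the Il6ra window held no match to these letters. Il4ra, which also fell over all cells, is not among the windows shown, and its window held 1 GC box match. Among 32851 promoter windows of this length, 7.02% held TTCNNNGAA, 2.98% the GAAA pair, 12.03% CCGGAA and 32.7% GGGCGG. No motif was shared by all 4 windows, and a match in letters is not a measured binding site.

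Each receptor was detected in part of the cells. A UMI of Il2rg was found in 83.5% of cells, of Il2rb in 59.3%, of Il21r in 44.1%, of Ifnar2 in 35.8%, of Il6ra in 32.2%, of Il6st in 29.6%, of Ifnar1 in 19.7%, of Ifngr1 in 17.5%, of Il10ra in 12.5% and of Il4ra in 6.89%. UMIs were counted at the 5′ end of transcripts and do not grow with transcript length. A share of cells with a UMI depends on depth: with every cell thinned to 2800 corrected UMIs, the share was 77.3% for Il2rg, 14.3% for Ifngr1 and 5.37% for Il4ra, and each of the 10 shares fell by more than the spread between mice. No cell type known to lack these receptors was in the sort, so the share that free RNA gives was not measured.

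A level is given below as the mean, over the cells of a mouse, of log2(corrected UMI count + 1), and then as the mean ± SD over mice. Clusters carry the authors' names. They were built from the same expression values, so levels across clusters are a description with no test, and neighbours in an order are said to differ where the mean difference within mice exceeded its SD over mice. A mouse entered a cluster with at least 20 cells, which left 8 mice for central memory TFH cells (5 WT and 3 564Igi) and 8 for interferon stimulated TFH cells (4 and 4), and 10 for the others.

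Ifngr1, which binds interferon gamma, was high in TFR cells and low in the large TFH clusters. Its level in TFR cells was lowest at 0.253, had a median of 0.313 and was highest at 0.389 (mean 0.323 ± 0.045, n = 10). In activated TFH cells it ran from 0.0810 over a median of 0.117 to 0.164 (0.121 ± 0.031, n = 10), and in Sostdc1 TFH cells from 0.0334 over 0.0829 to 0.118 (0.0798 ± 0.028, n = 10). The lowest TFR value therefore lay above the highest value of either cluster, and a UMI was found in 26.3% of TFR, 10.8% of activated and 6.96% of Sostdc1 TFH cells. Central memory TFH cells (0.283 ± 0.128, n = 8), interferon stimulated TFH cells (0.222 ± 0.106, n = 8) and effector TFH cells (0.180 ± 0.062, n = 10) came between, and no step in this order down to activated TFH cells exceeded its spread. The step from effector to activated TFH cells was still seen in 10 of 10 mice (0.0587 ± 0.070). The step from activated to Sostdc1 TFH cells exceeded its spread and was also seen in 10 of 10 mice (0.0417 ± 0.035). Ifngr2, the signalling partner of Ifngr1, was found in 3.57% of cells.

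Both chains of the type I interferon receptor were highest on average in central memory TFH cells. Ifnar1 was at 0.287 ± 0.075 (n = 8) there and at 0.237 ± 0.045 (n = 10) in TFR cells, and the other 4 clusters lay between 0.179 and 0.189. Ifnar2 was at 0.484 ± 0.106 (n = 8) in central memory TFH cells, at 0.421 ± 0.056 (n = 10) in TFR cells and lowest in effector TFH cells, at 0.285 ± 0.079 (n = 10). The steps that exceeded their spread were TFR over effector TFH cells for Ifnar1 (9 of 10 mice) and Sostdc1 over effector TFH cells for Ifnar2 (10 of 10 mice). In interferon stimulated TFH cells, a cluster marked by Ifit1 and Isg15, neither chain stood above the other clusters (Ifnar1 0.179 ± 0.071 and Ifnar2 0.385 ± 0.066, n = 8).

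The interleukin 6 receptor chains had different orders. Il6ra, which binds interleukin 6, was highest in Sostdc1 TFH cells (lowest 0.398, median 0.548, highest 0.717, mean 0.562 ± 0.105, n = 10) and activated TFH cells (0.398, 0.530, 0.633, mean 0.511 ± 0.077, n = 10). It was at 0.256 ± 0.045 (n = 10) in TFR cells, 0.112 ± 0.052 (n = 10) in effector TFH cells and 0.0956 ± 0.039 (n = 8) in central memory TFH cells. Activated TFH cells stood above the next cluster of that order, interferon stimulated TFH cells, in 8 of 8 mice, and TFR cells above effector TFH cells in 10 of 10 mice. Il6st, the signal-transducing chain gp130 that other cytokines of the family also use, was instead at 0.424 ± 0.131 (n = 8) in central memory TFH cells, next to Sostdc1 TFH cells (0.456 ± 0.051, n = 10). Its level in effector TFH cells was 0.0752 ± 0.052 (n = 10), and in 1 WT mouse with 23 such cells it was 0. Effector TFH cells lay below TFR cells, their neighbour in the order, in 10 of 10 mice by 0.262 ± 0.047.

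Among the gamma chain receptors, Il2rg, Il2rb and Il21r were high in TFR cells and Il4ra was high in central memory TFH cells. Il2rg was at 1.79 ± 0.18 (n = 8) in interferon stimulated TFH cells and 1.71 ± 0.06 (n = 10) in TFR cells, and the latter stood above activated TFH cells (1.37 ± 0.08) in 10 of 10 mice. Il2rb, the beta chain shared by the interleukin 2 and 15 receptors, was at 0.991 ± 0.065 (n = 10) in TFR cells and 0.452 ± 0.177 (n = 8) in central memory TFH cells, below TFR cells in 8 of 8 mice. Il21r was at 0.666 ± 0.021 (n = 10) in TFR cells and 0.437 ± 0.032 (n = 10) in activated TFH cells, with every mouse lower in the latter by 0.229 ± 0.025. Il4ra, which binds interleukin 4, was at 0.189 ± 0.062 (n = 8) in central memory TFH cells, at 0.105 ± 0.017 (n = 10) in TFR cells and at 0.0429 ± 0.0070 (n = 10) in activated TFH cells.

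Il10ra, which binds interleukin 10, was high in the 2 small clusters of central memory (0.613 ± 0.213, n = 8) and effector TFH cells (0.572 ± 0.103, n = 10). Every value of these clusters, 0.363 or more, lay above every value of the other 4, 0.192 or less. The other clusters had means from 0.0900 in Sostdc1 TFH cells to 0.136 in interferon stimulated TFH cells.

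**Figure D1:**
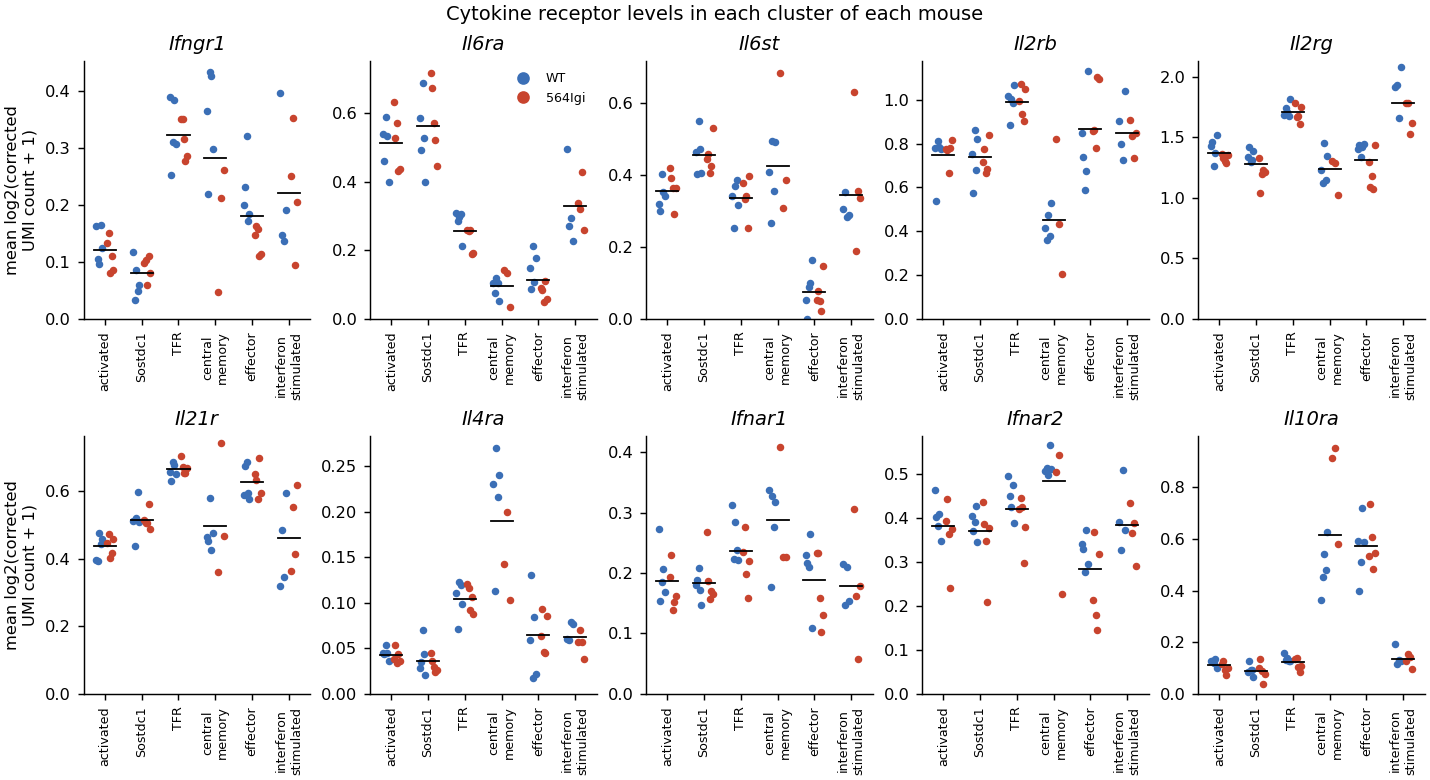
Level of each receptor (mean log2 of corrected UMI count + 1, y axis, starting at 0) in each cluster (x axis), with 1 point per mouse (blue WT, red 564Igi) and a bar at the mean over mice. Ifngr1 is highest in TFR and central memory cells, Il6ra in Sostdc1 and activated TFH cells, and Il10ra in central memory and effector TFH cells.

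Over the 56 values of a mouse in a cluster, after the mean of each mouse was removed, Il6ra and Il10ra had opposite orders (Pearson r -0.756), whereas Il4ra and Ifnar1 had like orders (r 0.694). These points share libraries and cells of the same clusters, so the correlations are descriptions. Out of 7093 genes compared, the 3 genes closest to Ifngr1 by this measure were Ecm1 (r 0.784), Tnfrsf9 (r 0.705) and Rab20 (r 0.664), and those closest to Il6ra were Cd40lg (r 0.943), Egln3 (r 0.942) and Tnfsf8 (r 0.931). For Il10ra they were Ap3s1 (r 0.894), B4galnt1 (r 0.889) and Gpr18 (r 0.880), and for Il4ra Ecm1 (r 0.861), Cmtm7 (r 0.844) and Epcam (r 0.833). Il2rg was followed by Tnfrsf1b (r 0.849), Ly6e (r 0.847) and Sla (r 0.845), and Il2rb by Capg (r 0.830), Tigit (r 0.817) and M6pr (r 0.773). For Il21r the closest were Cst7 (r 0.753), Icam1 (r 0.679) and Pglyrp1 (r 0.672), and for Ifnar1 they were Il4ra, Hspb11 (r 0.690) and X1810006J02Rik (r 0.678). Ifnar2 (Ptma, r 0.824, Ftl1, r 0.784, and H3f3a, r 0.779) and Il6st (H3f3a, r 0.814, Limd2, r 0.8003, and St6gal1, r 0.790) were led by widely found genes, with H3f3a in 97.7% and Ptma in 97.2% of cells.

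Chains that form 1 receptor were found in the same cell somewhat more often than their separate shares give. Il6ra and Il6st were found together in 11.1% of cells, while the product of their shares was 9.52%, and the ratio of the first share to the product was above 1 in 10 of 10 mice (1.08 to 1.24). Ifngr1 and Ifngr2 were found together in 0.851% against 0.6245% (ratio 0.686 to 1.72, above 1 in 9 of 10 mice), Ifnar1 and Ifnar2 in 7.70% against 7.07% (8 of 10 mice) and Il10ra and Il10rb in 1.34% against 1.14% (8 of 10 mice). With the gamma chain, which most cells had, the median ratio was 1.02 for Il2rb, 1.02 for Il21r and 1.04 for Il4ra. Cells of greater depth and cells of the same cluster raise such ratios, and their part was not tested. The share with both interferon gamma receptor chains was 1.52% in TFR and 0.360% in activated TFH cells, and the share with both interleukin 6 receptor chains was 17.5% in Sostdc1 TFH and 1.47% in effector TFH cells.

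Next, the 2 conditions were compared, to ask whether follicular T cells of autoimmune chimeras carried other receptor levels. None of the 10 receptors passed the threshold (limma, adjusted p below 0.01 and an absolute log2 difference above 0.2). On this scale a fall cannot exceed the level itself. Il4ra (WT level 0.0755) and Il10ra (0.147) could therefore not have been called as lower, and receptors just above 0.2 only after losing most of their level. Each of the 10 had a limma adjusted p of 0.9997, so none passed without the limit on the difference either. The level of Ifngr1 in all cells was 0.273, 0.187, 0.196, 0.250 and 0.196 in WT mice 11, 12, 14, 23 and 36, and 0.235, 0.229, 0.172, 0.174 and 0.163 in 564Igi mice 13, 17, 21, 24 and 34. The 2 groups overlapped, with means of 0.220 ± 0.039 and 0.194 ± 0.034 (n = 5 each, log2 difference -0.03, SE 0.02, limma adjusted p = 0.9997). The largest difference was that of Il2rg, at 1.54 ± 0.08 in WT and 1.46 ± 0.07 in 564Igi chimeras (difference -0.08, SE 0.07), followed by Ifnar2 at 0.422 ± 0.040 and 0.371 ± 0.070 (difference -0.05, SE 0.03). The other 7 differences ran from -0.029 (Ifnar1) to 0.011 (Il6st). Among all 9959 genes tested, 0.010% were called, the single gene being Gm42031, a long non-coding RNA (log2 difference 1.85, SE 0.18), and 318 had an unadjusted p below 0.05. No receptor had groups of mice that did not overlap, as against 0.452% of all genes.

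**Figure D2:**
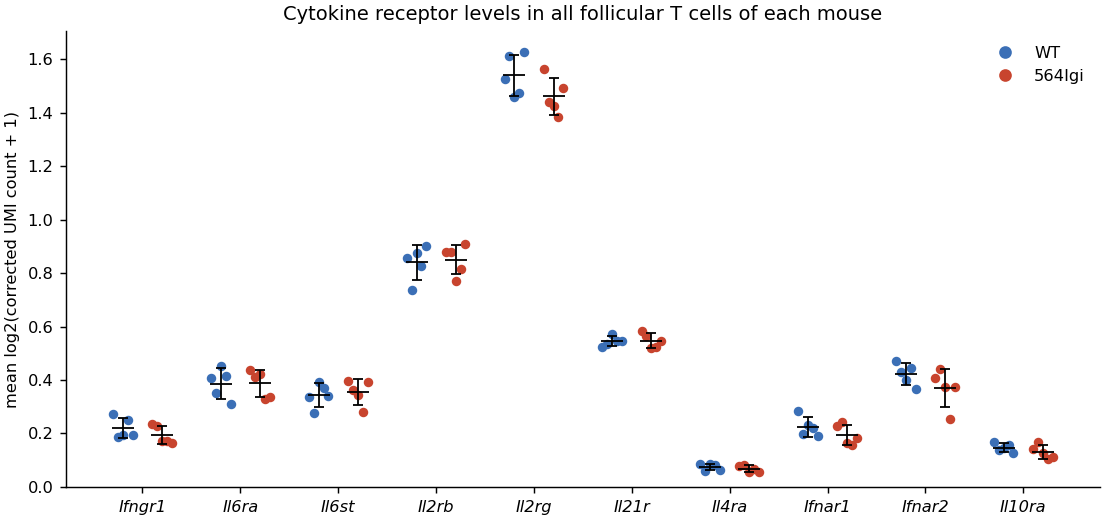
Level of each receptor over all follicular T cells of a mouse (mean log2 of corrected UMI count + 1, y axis, starting at 0), with 1 point per mouse (blue WT, red 564Igi) and black bars for the mean ± SD of 5 mice. WT and 564Igi points overlap for all 10 receptors.

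Within single clusters no receptor was called either. A receptor with a WT level below 0.2 in a cluster, such as Ifngr1 in activated TFH cells (0.131), could not have been called as lower there. The share of all genes called was 0.0101% in activated TFH cells (Gm42031), 0.0200% in TFR cells (Gm42031 and Ly6a), 0.0202% in Sostdc1 TFH cells (Gm42031 and Tpt1), 0% in central memory TFH cells, 0.0104% in effector TFH cells (Gm42031) and 0.0106% in interferon stimulated TFH cells (Gm42031). These few genes are named after their values were seen. At an unadjusted p below 0.05, limma gave 784 of 10351 genes in central memory TFH cells, Il10ra and Ifngr1 among them, and between 350 and 503 genes in each of the other 5 clusters.

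Il10ra in central memory TFH cells had the largest of these differences. Its level was 0.363, 0.453, 0.542, 0.478 and 0.63 in WT mice 11, 12, 14, 23 and 36, and 0.912, 0.952 and 0.580 in 564Igi mice 13, 17 and 24, which held 21, 83 and 29 such cells. Mouse 24 fell within the WT range and the other 564Igi mice above it (0.492 ± 0.098 and 0.814 ± 0.204, log2 difference 0.32, SE 0.08, limma adjusted p = 0.222). Without mouse 24 the difference was 0.44 with an adjusted p of 0.00927, so the call rests on leaving out 1 mouse. Ifngr1 in the same cells was at 0.348 ± 0.090 in WT and 0.174 ± 0.112 in 564Igi chimeras (difference -0.17, SE 0.06, adjusted p = 0.491), and its 564Igi values, 0.0476, 0.212 and 0.262, reached into the WT range of 0.219 to 0.433.

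Ifngr1 in effector TFH cells was the only receptor and cluster without overlap between the conditions. WT mice had 0.199, 0.231, 0.322, 0.171 and 0.185, and 564Igi mice 0.147, 0.163, 0.158, 0.111 and 0.114. All 564Igi values lay below the WT values, by 0.08 on average (SE 0.04), with a limma p of 0.0323 before and 0.945 after adjustment. In effector TFH cells 0.882% of all genes had groups that did not overlap. Il6ra in TFR cells was at 0.282 ± 0.040 in WT and 0.230 ± 0.037 in 564Igi chimeras (difference -0.05, SE 0.02, p = 0.0252 before and 0.9998 after adjustment by limma), and WT mouse 36, at 0.212, fell among the 564Igi values of 0.189 to 0.259.

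Whether the conditions differed more in TFR than in activated TFH cells was tested on each mouse's difference between the clusters. No receptor passed an adjusted p of 0.05 by limma, while 0.0201% of all 9936 genes did (Mt1 and Cd74), and 787 genes had an unadjusted p below 0.05. For Ifngr1 the gap between TFR and activated TFH cells differed by 0.0060 between conditions (adjusted p = 0.964 by limma).

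The genes around the receptors did not pass the threshold between conditions either. In all cells, 0 of 21 tested partner and other cytokine receptor chains, 0 of 11 Janus kinases and STATs, 0 of 4 ligands, 0 of 8 feedback inhibitors and 0 of 10 receptor response genes were called. A positive difference was seen for 6 of the 21 chains, beside 38.4% of all genes. Il7r, the interleukin 7 receptor chain of naive and memory T cells, had a difference of -0.08 (SE 0.04, p = 0.0470 before and 0.9997 after adjustment by limma).

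Cells were then divided by the size of their T cell clone, because interferon gamma receptor transcripts had been named in the study as differing with clone size between conditions. That statement came from these same mice, so the Ifngr1 values below are not independent evidence of it. A clonotype was the set of cells of a mouse with the same paired TCR. Cells of clonotypes with 1 cell (single, 3597 WT and 2940 564Igi cells) were compared with cells of clonotypes with at least 5 cells (expanded, 5523 and 5154 cells) within each mouse, and the largest clonotype of a mouse held 67 to 244 cells.

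In all cells, 5 receptors were lower and 2 were higher in expanded than in single clonotypes at an adjusted p below 0.05 (limma), and 3 did not pass. This comparison called 24% of all 9998 genes, 4.39% as higher and 19.6% as lower in expanded clonotypes. The median difference was -0.033 over the 10 receptors and -0.0058 over all genes, and 2 of 10 receptors and 23.4% of all genes had a positive difference.

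Ifngr1 had the largest fall of the 10 as a difference of levels. Such a difference is limited by the level of the gene, so it does not rank the receptors by proportion. In WT chimeras its level went from 0.352 in single to 0.204 in expanded clonotypes in mouse 11, from 0.241 to 0.161 in mouse 12, from 0.217 to 0.181 in mouse 14, from 0.334 to 0.183 in mouse 23 and from 0.248 to 0.0972 in mouse 36. In 564Igi chimeras it went from 0.250 to 0.219 in mouse 13, from 0.231 to 0.222 in mouse 17, from 0.224 to 0.178 in mouse 21, from 0.169 to 0.190 in mouse 24 and from 0.201 to 0.104 in mouse 34. Thus 9 of 10 mice were lower in expanded clonotypes, all 5 WT mice among them, and mouse 24 was higher. The means were 0.247 ± 0.056 and 0.174 ± 0.043 (n = 10), a log2 difference of -0.07 (SE 0.01, limma adjusted p = 2.0e-05).

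The type I interferon receptor chains and the binding chains for interleukin 10 and interleukin 4 fell as well. Il10ra was at 0.178 ± 0.030 in single and 0.119 ± 0.022 in expanded clonotypes, lower in 10 of 10 mice by 0.0139 to 0.0920 (limma adjusted p = 5.8e-06). Il4ra was at 0.0908 ± 0.020 and 0.0618 ± 0.016, lower in 10 of 10 mice (adjusted p = 4.1e-04 by limma). Ifnar1 (0.232 ± 0.045 and 0.195 ± 0.033) and Ifnar2 (0.431 ± 0.062 and 0.384 ± 0.064) were each lower in 9 of 10 mice, with limma adjusted p-values of 0.00121 and 0.00158.

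Il6ra and Il2rb rose. Il6ra was at 0.376 ± 0.051 in single and 0.407 ± 0.058 in expanded clonotypes and was higher in 9 of 10 mice (log2 difference 0.03, SE 0.01, limma adjusted p = 0.0196). Il2rb was at 0.819 ± 0.072 and 0.872 ± 0.066 and was higher in 8 of 10 mice (difference 0.05, SE 0.02, limma adjusted p = 0.0288). The other chains did not pass by limma: Il2rg at 1.51 ± 0.08 and 1.46 ± 0.09 (adjusted p = 0.0574), Il6st at 0.369 ± 0.066 and 0.342 ± 0.044 (0.123) and Il21r at 0.555 ± 0.018 and 0.538 ± 0.029 (0.224).

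**Figure D3:**
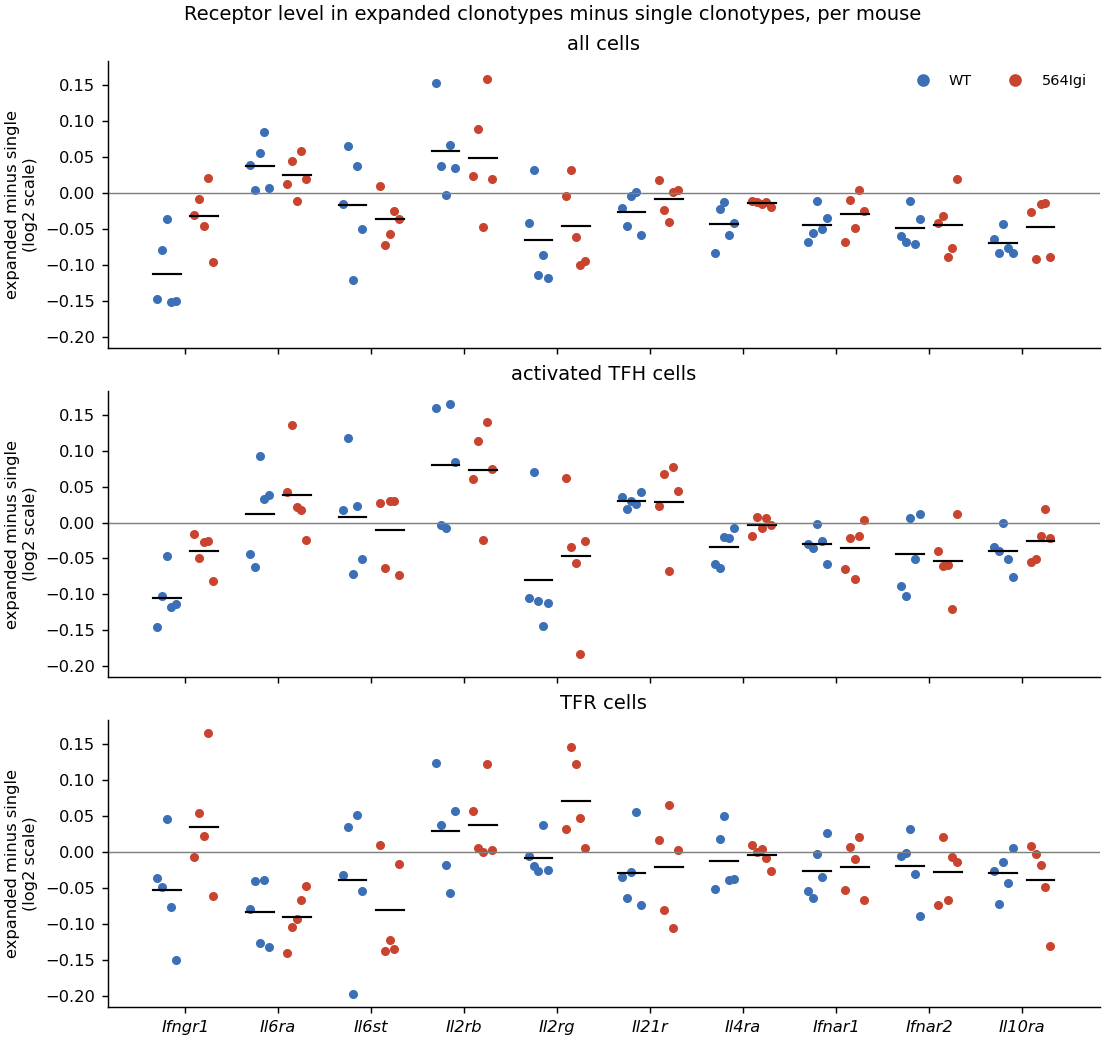
Level in expanded minus level in single clonotypes (difference of mean log2 of corrected UMI count + 1, y axis) for each receptor in all cells, activated TFH cells and TFR cells, with 1 point per mouse (blue WT, red 564Igi) and a line at the mean of each condition. Il10ra and Il4ra lie below 0 in all 10 mice in all cells, Ifngr1 does so in activated TFH cells, and Il6ra does so in TFR cells.

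Single and expanded clonotypes also differed in depth and in makeup. The median raw UMI count was 3823 in single and 3471 in expanded cells of WT chimeras and 3900.5 and 3562.5 in those of 564Igi chimeras. Median percent of mitochondrial UMIs was 3.31 in single and 3.604 in expanded cells of WT chimeras and 3.28 and 3.24 in those of 564Igi chimeras, and the median heat shock score was -0.036 and -0.018 in WT and -0.032 and -0.036 in 564Igi chimeras, and their part in the results was not tested. In the median mouse, central memory TFH cells, in which Il10ra and Il4ra were highest, made up 6.84% of single and 0.0975% of expanded cells, TFR cells 44.4% and 34.1%, activated TFH cells 38.1% and 48.5%, and Sostdc1 TFH cells 5.97% and 13.5%. The part of makeup in the all-cell differences is shown only by the comparisons within clusters that follow, and that of depth was not tested apart from another scaling. On counts per 10000 the all-cell comparison gave 2 receptors higher and 5 lower, with Ifngr1 at -0.13. Over all genes 497 were then higher and 1447 lower, in place of 439 and 1961. Summed markers of other cell types overlapped between single and expanded cells (B cell 0.0352 to 0.115 and 0.0467 to 0.117, myeloid 0.427 to 0.690 and 0.536 to 0.719, CD8 and natural killer 0.0811 to 0.148 and 0.0588 to 0.127, erythroid 0 to 0.0233 and 0 to 0.0173), with no listed gene found at 0 over all cells, and their part was not tested.

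Within activated TFH cells, 1 receptor rose and 5 fell with clone size, while 9.32% of all genes were called there, 2.26% as higher and 7.06% as lower. Ifngr1 was at 0.167 ± 0.047 in single and 0.0952 ± 0.026 in expanded clonotypes and was lower in 10 of 10 mice, by 0.0153 to 0.145 (limma adjusted p = 9.4e-06). Il10ra (difference -0.03, adjusted p = 0.0248), Ifnar2 (-0.05, adjusted p = 0.0319), Il4ra (-0.02, adjusted p = 0.0368) and Ifnar1 (-0.03, adjusted p = 0.0488) fell, and Il2rb rose from 0.709 ± 0.075 to 0.785 ± 0.103 (adjusted p = 0.0194, all by limma). This count rests on single mice: it was 1 without WT mouse 23, 2 without WT mouse 11 or 564Igi mouse 13 or 17, and 3 without WT mouse 12 or 564Igi mouse 21 or 24. The share of all genes called in these smaller fits is not given here, so a loss particular to the receptors cannot be read from them. On counts per 10000, 1 receptor rose and 2 fell, and over all genes 267 rose and 494 fell in place of 222 and 695.

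In TFR cells a different chain was lower in large clones. Il6ra fell from 0.310 ± 0.052 in single to 0.224 ± 0.050 in expanded clonotypes and was lower in 10 of 10 mice, by 0.0385 to 0.140 (log2 difference -0.09, SE 0.01, limma adjusted p = 1.8e-05). In activated TFH cells Il6ra was at 0.497 ± 0.080 and 0.522 ± 0.096, a difference that did not pass (0.03, SE 0.02, adjusted p = 0.389 by limma). The difference between these clusters was not tested. Il6st fell in TFR cells from 0.375 ± 0.061 to 0.315 ± 0.069 (adjusted p = 0.0490 by limma) in 7 of 10 mice, and this call was lost in 12 of 17 alternatives, among them those without WT mouse 11, 14 or 36 or 564Igi mouse 17, 21 or 24. These 2 receptors stood beside 3.77% of all genes called and 2.77% called lower. On counts per 10000 only Il6ra fell, with 118 genes higher and 180 lower in place of 100 and 276. Ifngr1 was at 0.326 ± 0.062 in single and 0.318 ± 0.071 in expanded TFR clonotypes (difference -0.01, SE 0.02, adjusted p = 0.812 by limma).

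When cells were first averaged within each clonotype, so that a large clone counted once, these values changed. The Ifngr1 difference stayed at -0.07 in all cells (limma adjusted p = 2.0e-06), was -0.02 in activated TFH cells (adjusted p = 0.470) and was -0.08 in TFR cells (adjusted p = 0.00568). The Il6ra difference in TFR cells was -0.01 (adjusted p = 0.918 by limma).

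In Sostdc1 TFH cells, with 3 WT and 4 564Igi mice, no receptor was called, and 0.0197% of all genes were (S100a6 and Tmsb10, named after their values were seen). At an unadjusted p below 0.05, limma gave 733 genes there, of which Il21r was the only receptor (difference -0.09, SE 0.04, p = 0.0222 before and 0.619 after adjustment).

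The change with clone size was then compared between conditions. No receptor passed an adjusted p of 0.05 by limma in all cells, where 0.220% of all genes did, in activated TFH cells (0%), in TFR cells (0.110%) or in Sostdc1 TFH cells (0%). At an unadjusted p below 0.05 limma gave 1006, 704, 695 and 603 genes in these 4 comparisons. The Ifngr1 difference between expanded and single clonotypes was -0.113 ± 0.052 in WT and -0.0323 ± 0.044 in 564Igi chimeras, apart by 0.08 (SE 0.02, p = 7.5e-04 before and 0.110 after adjustment by limma). WT mice 12, at -0.08001, and 14, at -0.0367, lay among the 564Igi values of -0.0965 to 0.0208. Without WT mouse 14 the adjusted p was 0.00868, and without 564Igi mouse 34 it was 0.0458, so the call turns on single mice. Il4ra changed by -0.0438 ± 0.029 in WT and -0.0143 ± 0.0035 in 564Igi chimeras (adjusted p of the difference 0.336 by limma).

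Over 4 classes of clone size, Ifngr1 in all cells of WT chimeras was at 0.278 ± 0.060 in clonotypes of 1 cell, 0.227 ± 0.027 in those of 2 to 4, 0.182 ± 0.040 in those of 5 to 10 and 0.159 ± 0.042 in larger ones, and a UMI was found in 24.1%, 18.9%, 15.8% and 13.4% of these cells. In 564Igi chimeras the levels were 0.215 ± 0.031, 0.188 ± 0.032, 0.174 ± 0.036 and 0.188 ± 0.059. The mean thus fell at each step in WT chimeras, and in 564Igi chimeras the largest clones lay within the spread of the smaller ones. In activated TFH cells the WT means were 0.195, 0.134, 0.113 and 0.0838 and the 564Igi means 0.139, 0.0999, 0.0929 and 0.103. In TFR cells they were 0.351, 0.327, 0.283 and 0.304 in WT and 0.302, 0.303, 0.313 and 0.356 in 564Igi chimeras.

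**Figure D4:**
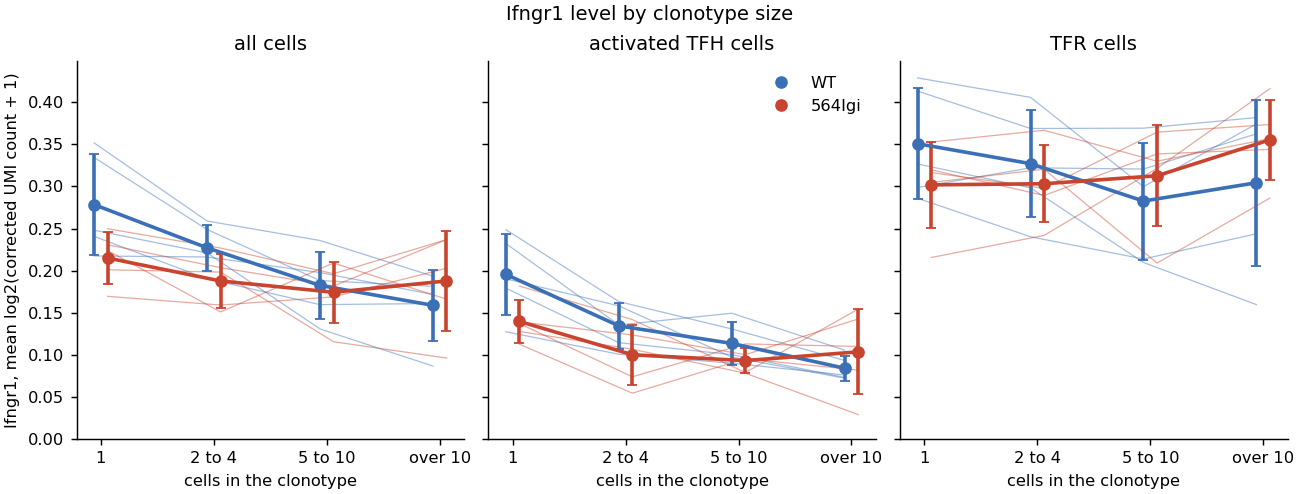
Ifngr1 level (mean log2 of corrected UMI count + 1, y axis) in cells of clonotypes of 1, 2 to 4, 5 to 10 and over 10 cells (x axis) in all cells, activated TFH cells and TFR cells, with thin lines for single mice and thick lines with bars for the mean ± SD of 5 mice (blue WT, red 564Igi). In all cells the WT mean falls from 0.278 to 0.159, while the 564Igi mean goes from 0.215 to 0.188.

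Spearman's rho between Ifngr1 and clone size over the cells of a mouse gave 1 value per mouse, here used as a description of that mouse. In all cells it was -0.134, -0.0946, -0.0369, -0.134 and -0.176 in WT mice 11, 12, 14, 23 and 36, and -0.0111, 0.0260, -0.0354, 0.0231 and -0.0897 in 564Igi mice 13, 17, 21, 24 and 34. All WT values were negative and 3 of 5 564Igi values were, and the groups overlapped through WT mouse 14 and 564Igi mouse 34. The means of -0.115 ± 0.052 and -0.0174 ± 0.048 differed by 0.0975 (two-sided exact permutation test over 252 splits, p = 0.0159, where the smallest possible is 0.00794). Mice 34 and 36 had the most negative rho of their conditions. Without them, an alternative chosen after seeing the data, the conditions did not overlap, with WT values up to -0.0369 and 564Igi values from -0.0354, and differed by 0.1004 (exact permutation p = 0.0286, the smallest that this number of mice can give). Within activated TFH cells the difference was 0.0866 (exact permutation p = 0.0238) and within TFR cells 0.0905 (exact permutation p = 0.0556). Over clonotypes in place of cells rho was positive in all 10 mice and the difference was 0.0389 (exact permutation p = 0.222). No Ifngr1 UMI was found in 75.9% of single and 40.4% of expanded WT clonotypes, and in 81.1% and 44.0% of 564Igi clonotypes. A clonotype of 1 cell has fewer chances to hold a UMI, and the part of this in the positive rho was not tested.

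**Figure D5:**
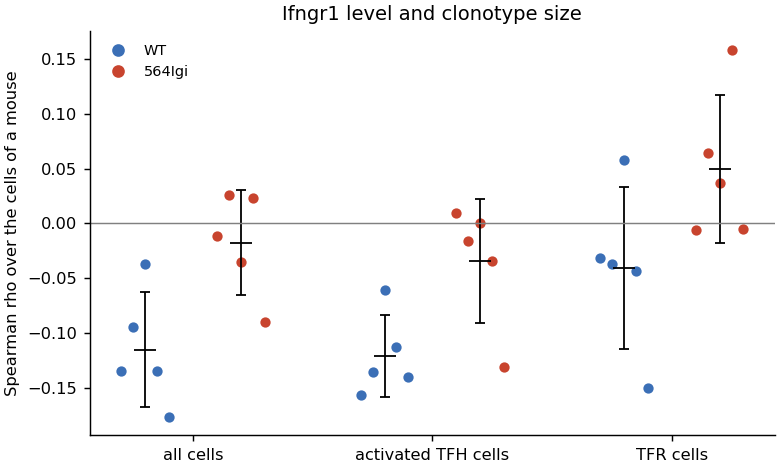
Spearman's rho between Ifngr1 level and clone size over the cells of each mouse (y axis, no unit) in all cells, activated TFH cells and TFR cells, with 1 point per mouse (blue WT, red 564Igi) and bars for the mean ± SD of 5 mice. In all cells the WT mean is -0.115 and the 564Igi mean -0.0174, and points of the conditions overlap.

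The counts of the lists that follow stand beside the 4.39% of all genes that were higher and the 19.6% that were lower in expanded clonotypes of all cells, and nothing particular to a list is read from them. Of 21 other receptor chains tested in all cells, 6 fell and 0 rose with clone size (limma, adjusted p below 0.05), led by Il7r (difference -0.07, SE 0.01, adjusted p = 5.9e-05) and Il2ra (-0.05, SE 0.01, adjusted p = 3.4e-06), the high-affinity chain for interleukin 2, whereas its partner Il2rb rose. Ifngr2, the partner of Ifngr1, was among the 6 (-0.01, SE 0.003). Of 11 Janus kinases and STATs, 1 rose, Stat4 (0.08, SE 0.01, adjusted p = 9.2e-05), and 3 fell, led by Jak1 (-0.06, SE 0.02, adjusted p = 0.00382), a kinase that each of the receptor types here uses. Of 4 ligands tested, 3 rose and 0 fell: Il21 (0.11, SE 0.01, adjusted p = 1.1e-07), Ifng (0.05, SE 0.01, adjusted p = 3.7e-04) and Il10 (0.02, SE 0.004). Of 8 feedback inhibitors 0 rose and 3 fell, among them Pias1 (-0.02) and Cish (-0.02), a STAT5 target. Of 10 response genes 1 rose, Bcl2 (0.06, SE 0.01). Beside these, 5 of 7 naive and memory T cell genes fell, such as Lef1 (-0.11), and 5 of 5 follicular markers rose, such as Pdcd1 (0.35) and Cd3e (0.24). Of 12 cluster markers 4 rose and 4 fell, and of the 2 tested markers each of B cells, myeloid cells and CD8 or natural killer cells, 1 fell, 1 rose and 1 fell.

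Within activated TFH cells, where 7.06% of all genes were lower and 2.26% higher in expanded clonotypes, 3 of 21 chains fell, Il7r (-0.11), Il17ra (-0.05) and Il2ra (-0.01), and Il21 (0.14), Ifng (0.05), Il10 (0.04), Stat4 (0.08) and Bcl2 (0.08) rose. In TFR cells, where 3.77% of all genes were called and 2.77% were lower, 2 of 21 chains rose, Il1r2 (0.15), a decoy receptor for interleukin 1, and Tnfrsf1b (0.07), while Il7r (-0.08) and Il2ra (-0.07) fell and Irf1, an interferon target, rose (0.09). Among the genes of these signalling lists, Il7r in TFR cells was the only one whose change differed between conditions by limma (-0.14 in WT and -0.02 in 564Igi chimeras, adjusted p = 0.0201). In Sostdc1 TFH cells 0 genes of these signalling lists were called with clone size.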

How the data were processed

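Follicular T cells of 10 mice were measured by droplet 5′ RNA sequencing with paired TCR sequencing. Per the submitters' processing notes and the study's methods, the authors used Cell Ranger 4.0.0 and Seurat 3.1.4 with mouse build GRCm38 and normalized each condition separately by sctransform, which can move levels between conditions. The deposited matrix holds the natural log of corrected UMI counts plus 1, and 100% of values turned back into whole counts within 1e-06. The authors also deposited the raw UMI count of each cell, the percent of mitochondrial reads, a heat shock score and cluster names, which were used as given. The study's text names no doublet removal, and no doublet caller was run here.

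Groups came from the labels. Counts were averaged per mouse as log2(corrected count + 1), for mice with at least 20 cells and genes found in at least 1% of cells. Corrected totals ran from 2804 to 4591 per cell, so low shares are limited by depth, and thinning was to 2800 UMIs. Comparisons used limma 3.58.1 (R 4.3.3) with a mean-dependent prior and Benjamini-Hochberg adjustment over all genes tested. The rho comparison used a two-sided exact permutation test over mice, in 1 main comparison. Python 3.11.15, numpy 2.4.6, pandas 2.3.3, scipy 1.17.1 and matplotlib 3.10.9 were used. Gene positions came from GENCODE annotation on GRCm38 and promoters from RefSeq. The scripts were tested on simulated data.

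The members, gene lists and tests were chosen with earlier results of these data known. The text names every member, for each list the genes with the largest absolute log2 difference (2 by rule, others where a count was 5 or fewer, named after their values were seen), and for each member the 3 genes with the highest Pearson r of levels over mice and clusters, centred within mouse, among genes in at least 5% of cells. A gene that this rule names in the list of naive and memory T cell genes is not reported here. Alternatives were another scaling (counts per 10000), no trend, no filter on low genes, other clone size limits, averaging within clonotypes, clone size over cells with RNA, and leaving out each mouse. Between conditions they also included labelled sex as a covariate and an adjusted p below 0.05 with no limit on the difference. In all cells, the same number of cells per mouse and pooled cluster shares as weights were added. Ifngr1 in all cells kept a limma adjusted p of 0.863 or more under all of them, and values of the other receptors in these fits are not given here.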

Additional observations from a re-analysis of the deposited data

Results flagged for a closer look

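Il2rg in activated TFH cells of WT chimeras had 1 mouse far from the others: the difference between expanded and single clonotypes was 0.0709 in mouse 12, and it lay between -0.143 and -0.105 in the other 4 WT mice. Of 86 groups of mice checked in this way this was the 1 that stood out, while chance alone gives about 1 in 20.

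The correlation of Ifngr1 with clone size, taken up because the study had named it from these same mice, differed between conditions by 0.0975 in rho in all cells (two-sided exact permutation test, p = 0.0159, n = 5 mice each) and by 0.0866 within activated TFH cells (exact permutation p = 0.0238, n = 5 each). The difference did not pass within TFR cells (0.0905, exact permutation p = 0.0556), without the largest clonotype of each mouse (0.0857, exact permutation p = 0.0556) or over clonotypes (0.0389, exact permutation p = 0.222), where rho was positive in all 10 mice, and the limma test of the difference between expanded and single clonotypes had an adjusted p of 0.110 between conditions. In all cells rho was negative in 5 of 5 WT and 3 of 5 564Igi mice. Immunization and 564Igi marrow cannot be told apart in this difference.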

How the results depend on the processing

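No paired analysis of WT against 564Igi chimeras was possible because the mice of the conditions share no replicate numbers. The comparisons of clone size and of TFR with activated TFH cells were made within each mouse. No result changed direction past a threshold. Of the receptor values followed under the alternatives, 455 kept their side of the threshold, 71 lost a call, 4 gained one, and the 10 shares of cells with a UMI moved with thinning. The 455 include many values that were not called in the main comparison and so had no call to lose, and the 71 all come from values that were called there. In all cells, 5 to 9 receptors were called with clone size, and Ifngr1, Il4ra, Il10ra, Ifnar1 and Ifnar2 kept their calls in 17 of 17 alternatives, whereas Il2rb lost its call in 6 and Il6ra in 3. In activated TFH cells the 6 called receptors became 3 without the limma trend, on counts per 10000 and without mice 34 and 36, and 2 with expanded clones of more than 10 cells and after averaging within clonotypes. Leaving out each mouse gave 1 to 6. In TFR cells the 2 called receptors became 1 without the trend, with clones of more than 10 cells, with clone size over cells with RNA, on counts per 10000 and without mice 34 and 36, and leaving out each mouse gave 1 to 2. After averaging within clonotypes the calls in TFR cells fell on other receptors. Il6ra lost its call (limma adjusted p = 0.918), and Ifngr1, not called in the main comparison, gained one (limma adjusted p = 0.00568). The number of all genes called moved as well. On counts per 10000 it was 1944 in all cells, 761 in activated TFH and 298 in TFR cells, in place of 2400, 917 and 376. For the other alternatives it is not given here, so nothing particular to the receptors is read from these counts. The alternative without mice 34 and 36 in clone comparisons was chosen after seeing the data. Leaving out each mouse gave 0 to 1 receptors between conditions in central memory TFH cells (1, Il10ra, without 564Igi mouse 24) and 0 to 1 in the clone size difference between conditions in all cells (1, Ifngr1, without WT mouse 14 or 564Igi mouse 34). The difference in rho was 0.0905 within TFR cells (exact permutation p = 0.0556), 0.0857 without the largest clonotype of each mouse (exact permutation p = 0.0556) and 0.0389 over clonotypes (exact permutation p = 0.222), and 0.0823 to 0.117 leaving out each mouse. The causes were not tested. Restricting to cells with 1 alpha and 1 beta chain changed nothing by construction, since each cell was listed with exactly these.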
